A study of Mus musculus with 25 samples.

Results

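The 9 carbonic anhydrase genes described here, Car2, Car3, Car4, Car6, Car8, Car9, Car12, Car13 and Car14, were taken from the array annotation by gene symbol, among 18194 genes measured in salivary gland RNA of male C57BL/6.NOD-Aec1Aec2 mice. They were represented by 19 probe sets, of which 13 counted as expressed, that is, had a mean over all arrays above 3.27 on the log2 scale, the median over all probe sets. For 7 of the 9 genes at least 1 probe set was expressed, and Car4 and Car14 had none. Onto the C57BL/6 background these mice carry a pair of NOD intervals, Aec1 (Idd3, on chromosome 3) and Aec2 (Idd5, on chromosome 1), and they develop a disease like Sjögren's syndrome. RNA was taken from 5 individual mice at each of 5 ages, 4 weeks apart from 4 to 20 weeks, and hybridised to 25 Affymetrix mouse genome arrays. Each sample combined 1 lobe of the submandibular, sublingual and parotid glands of a mouse, with the lymph nodes removed. The mice of an age came from more than 1 litter. Since every mouse carried both intervals and no C57BL/6J array was analysed here, age and disease cannot be told apart. In whole glands, fewer cells of a type and less RNA per cell cannot be told apart either.

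Carbonic anhydrases are zinc enzymes that interconvert carbon dioxide and bicarbonate, with release or uptake of a proton. In salivary glands the bicarbonate they supply leaves the cell through exchangers and channels and buffers the saliva, while the protons are removed by exchangers and pumps. The family holds cytosolic enzymes (Car2, Car3, Car13), 1 secreted enzyme (Car6), enzymes that face the outside of the cell (Car4, held by a lipid anchor, and Car9, Car12 and Car14, held by a membrane span), and proteins such as Car8 that have lost the catalytic activity. In the gene table Car2, Car3 and Car13 neighbour each other on chromosome 3. The bounds of the NOD interval on that chromosome were not analysed here.

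Markers of the labelled tissue were present. The parotid serous list (Amy1, Bpifa2 and others) lay between 8.30 and 14.57, and the list of granular convoluted duct cells (Egf, kallikreins and others) between 14.42 and 15.31, as mean log2 values over the 25 arrays. The parotid list differed widely among mice of 1 age. It ran from 9.70 to 14.42 at 4 weeks, 8.30 to 14.30 at 8 weeks and 9.42 to 14.41 at 12 weeks. At 16 weeks it ran from 8.69 to 14.32, and at 20 weeks from 9.91 to 14.57. Mouse 5 of 16 weeks read 8.74 on the submandibular and sublingual acinar list, against 10.93 to 11.13 in the other mice of its age. Of 12 skeletal muscle genes 3 were expressed, and their mean stayed between 3.31 and 4.15. The mean of the T and B cell list reached 8.98 in mice 3 and 4 of 16 weeks and lay between 3.22 and 5.89 in all other mice. Arrays stood apart in their overall signal. The upper quartile of an array was lowest in mouse 3 at 20 weeks (5.19), mouse 2 at 16 weeks (5.20) and mouse 4 at 4 weeks (5.34), against 5.54 to 5.98 on the other arrays. Mouse 3 at 20 weeks also correlated least with its own age (median r = 0.887, against at least 0.973 for every other array), and its Gapdh signal was 3.87 higher (log2) at the 3′ than at the 5′ end, against at most 1.68 elsewhere. No array was left out. Results that turn on these 3 arrays are given with and without them, a choice made after seeing the data.

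Against 4 weeks, few of the 9 genes changed. Car13, a cytosolic enzyme, was 1.99-fold higher at 8 weeks and 1.71-fold higher at 12 weeks, and Car2, the fast and widespread cytosolic enzyme, was at 0.464 of its 4-week level at 16 weeks. At no age did any of the other 7 genes pass. At 8 weeks 1 of 9 genes passed (limma, Benjamini-Hochberg adjusted p under 0.05 over all genes), where 2.26% of all genes did. At 12 weeks it was 1 of 9, against 7.01% of all genes, and at 16 weeks 1 of 9, against 3.4% of all genes. At 20 weeks none of the 9 passed in limma, and 2.65% of all genes passed. At an unadjusted p under 0.05 it was 3 of the 9, against 12.4% of all genes. A count of 1 in 9 is too small to set the family apart from these background shares. The median log2 fold change over the 9 genes was -0.12, -0.08, -0.14 and -0.06 at 8, 12, 16 and 20 weeks, beside -0.03, -0.03, -0.02 and 0.04 over all genes. Without the 3 arrays of lowest upper quartile, 2, 2, 2 and 4 of the 9 genes passed at 8, 12, 16 and 20 weeks, where 6.15%, 16.2%, 11.1% and 9.21% of all genes did.

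**Figure D1:**
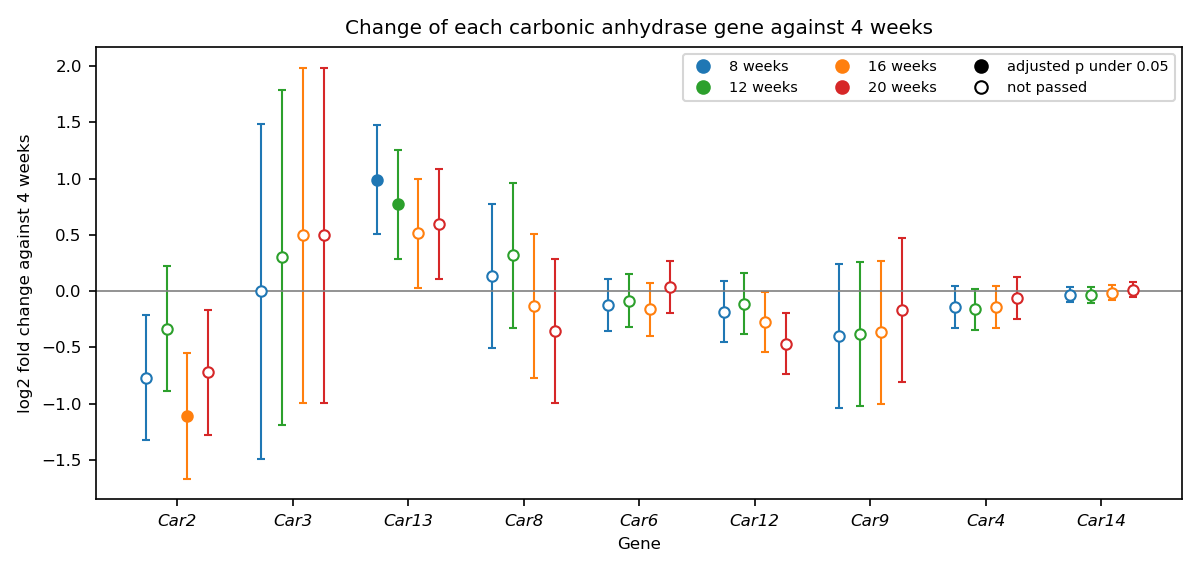
Log2 fold change of each carbonic anhydrase gene at 8, 12, 16 and 20 weeks against 4 weeks (y axis), by gene (x axis), with bars for the 95% confidence interval from the limma fit on 25 arrays. Filled points passed at an adjusted p under 0.05: Car2 at 16 weeks and Car13 at 8 and 12 weeks.

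Between consecutive later ages no gene of the 9 passed in limma. Of all genes, 0.0055% passed between 12 and 8 weeks, 0.0055% between 16 and 12 weeks and 0.0275% between 20 and 16 weeks, and at an unadjusted p under 0.05 the counts of the 9 genes were 0, 1 and 0, against 3.86%, 7.67% and 7.22% of all genes. The moderated F-test over the 5 ages called none of the 9, against 4.66% of all genes. At an unadjusted p under 0.05 it picked Car2, Car12 and Car13 (3 of 9), against 18.6% of all genes, and the adjusted p was 0.0752 for Car2, 0.0783 for Car13 and 0.161 for Car12. No gene of the 9 had a B-statistic, the log odds that a gene follows a trend of given degree over age, above the threshold of 1.5 used in the methods, which 1.92% of all genes passed. The highest was that of Car12, at -1.40 for the linear term. Without the 3 arrays of lowest upper quartile the F-test called 3 of the 9, against 13.9% of all genes, and 1 of the 9 passed by the B-statistic, against 3.64% of all genes.

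Of the cytosolic enzymes, Car2 was measured by 1 probe set (1448752_at). The 5 mice of 4 weeks read 9.35, 9.43, 9.25, 8.47 and 9.47 on the log2 scale. At 8 weeks the values were 8.78, 8.42, 8.38, 8.22 and 8.32, and at 12 weeks 8.86, 8.95, 8.99, 8.73 and 8.77. At 16 weeks they were 8.37, 6.88, 8.27, 8.24 and 8.66, and at 20 weeks 8.54, 8.97, 7.68, 8.79 and 8.39. Outside mouse 4, every mouse of 4 weeks lay above every older mouse, and mouse 4 of 4 weeks, one of the 3 arrays of low upper quartile, lay among the older mice, so the groups overlapped at every age.

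The mean level of Car2 was 8.09 ± 0.69 at 16 weeks and 9.19 ± 0.41 at 4 weeks (SD, n = 5 each), a log2 fold change of -1.11 (SE 0.27, limma adjusted p = 0.0222). At 8 weeks the log2 fold change of Car2 was -0.77 (95% interval -1.32 to -0.21), at 12 weeks -0.33 (-0.89 to 0.22) and at 20 weeks -0.72 (-1.28 to -0.16), and none of these passed. Ordered by mean level, the ages ran 4, 12, 20, 8 and 16 weeks, and no neighbours in that order were further apart than the larger of their SDs. Mice 3 and 4 of 16 weeks, with the high T and B cell list, read 8.27 and 8.24, close to mouse 1. The call at 16 weeks did not hold without mouse 2, 3 or 5 of 4 weeks (adjusted p = 0.0597, 0.0551 and 0.0508). It did hold without the 3 arrays of lowest upper quartile, where Car2 also passed at 8 weeks (-0.95, adjusted p = 0.00017), 12 weeks (-0.51, adjusted p = 0.00705) and 20 weeks (-0.70, adjusted p = 0.00192). With a covariate for the array's upper quartile Car2 passed at 8, 12 and 20 weeks too (-1.16, -0.73 and -0.85). Without mouse 2 of 16 weeks alone it passed at 8 weeks (adjusted p = 0.0425).

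Car13 went the other way. Its 5 mice at 4 weeks read 8.47, 8.29, 7.77, 6.90 and 8.36 (log2, mean of 3 probe sets), at 8 weeks 9.00, 8.90, 8.79, 8.96 and 9.11, and at 12 weeks 8.72, 8.91, 8.64, 8.83 and 8.54. At 16 weeks they read 8.76, 8.12, 8.20, 8.45 and 8.83, and at 20 weeks 8.99, 8.67, 7.89, 8.59 and 8.64. All mice of 8 and of 12 weeks lay above all mice of 4 weeks, which was so for 4.58% of all genes at 8 weeks and 12.5% at 12 weeks, while at 16 and 20 weeks the values overlapped those of 4 weeks. The lowest value was again that of mouse 4 at 4 weeks.

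At 8 weeks Car13 averaged 8.95 ± 0.12, and at 4 weeks 7.96 ± 0.65 (SD, n = 5 each). The log2 fold change was 0.99 (SE 0.23, limma adjusted p = 0.0258) at 8 weeks and 0.77 (adjusted p = 0.0485) at 12 weeks. At 16 weeks it was 0.51 (95% interval 0.03 to 1.00) and at 20 weeks 0.60 (0.11 to 1.08), and neither passed. At 20 weeks Car13 did pass without mouse 3 of that age (0.76, adjusted p = 0.0402) and without the 3 arrays of lowest upper quartile (0.50, adjusted p = 0.0400). In these fits 1617 and 1676 of all genes passed at 20 weeks, against 483 with all arrays. Car13 also passed at 20 weeks with quantile normalization (0.60, adjusted p = 0.0182) and with array weights (0.54, adjusted p = 0.0141), where 1138 and 6533 of all genes did. By mean level the ages ran 8, 12, 20, 16 and 4 weeks, and of neighbours in that order only 8 and 12 weeks were further apart (0.22) than the larger of their SDs (0.15).

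The calls of Car13 depended on single arrays, and over 36 settings tried the change passed in 30 at 8 weeks and in 12 at 12 weeks. Without mouse 4 of 4 weeks the log2 fold change was 0.73 at 8 weeks (adjusted p = 0.0569) and 0.51 at 12 weeks (adjusted p = 0.149). At 8 weeks it also failed without mouse 3 of 4 weeks (adjusted p = 0.0768) and without mouse 4 or 5 of 8 weeks (adjusted p = 0.0552 and 0.0822). With a covariate for the array's upper quartile neither age passed (0.68, adjusted p = 0.0510, and 0.46, adjusted p = 0.159). Without the 3 arrays of lowest upper quartile both ages passed (0.73, adjusted p = 0.00500, and 0.51, adjusted p = 0.0194). The probe sets moved in the same direction: fitted one by one over 34958 probe sets, 1421308_at (0.99) and 1439620_at (1.09) passed at 8 weeks, where 1.52% of all probe sets did, and 1421307_at (0.86) passed at 12 weeks, where 4.95% did.

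**Figure D2:**
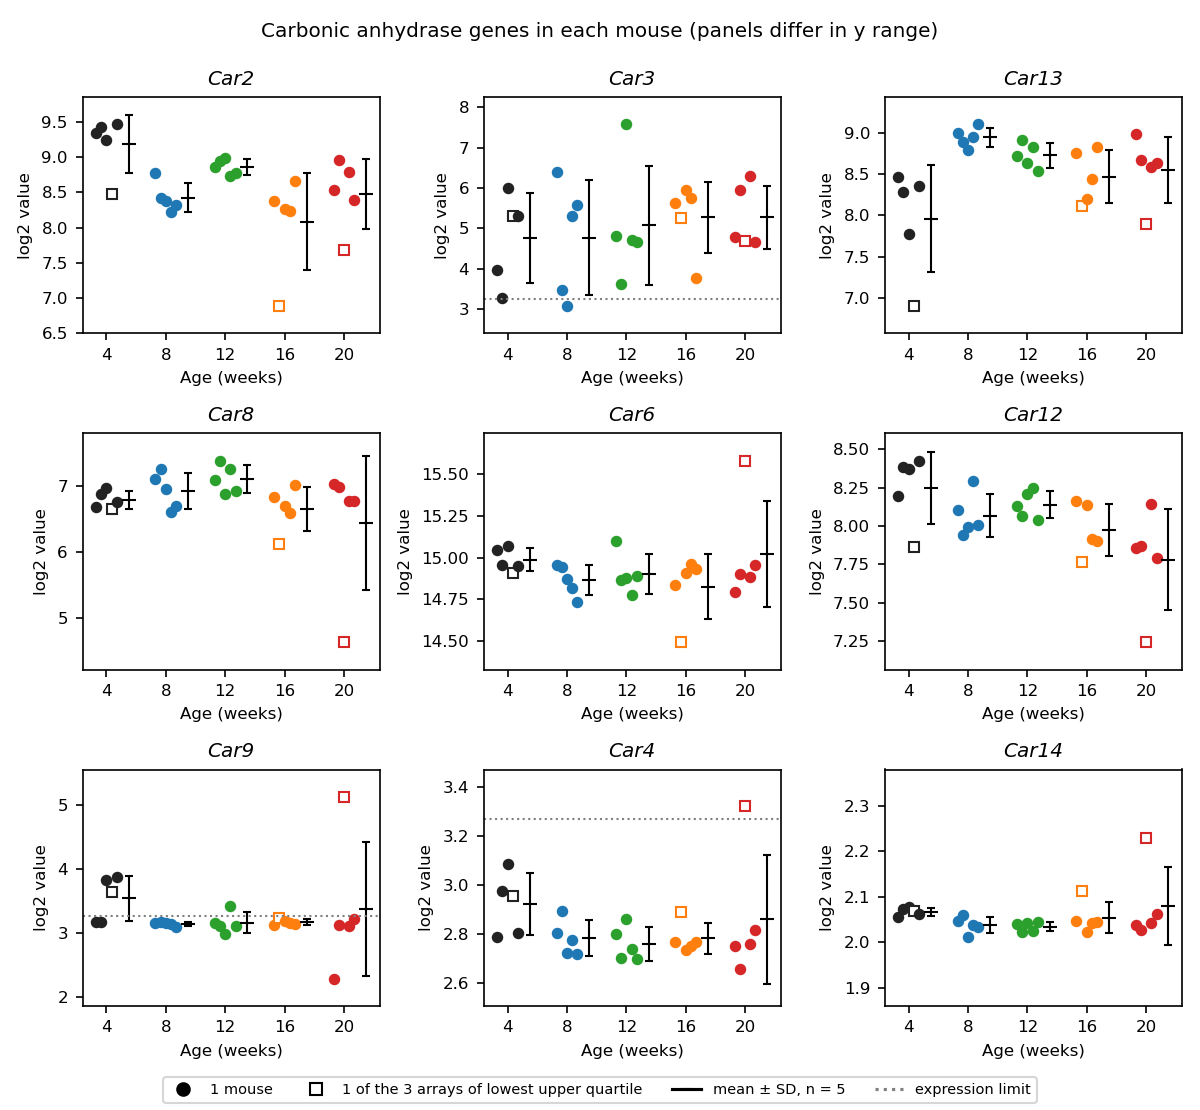
Log2 value (y axis, differing between panels) of the 9 carbonic anhydrase genes in each of 25 mice by age in weeks (x axis), with mean and SD beside each group of 5, open squares for the 3 arrays of lowest upper quartile and a dotted line at the expression limit of 3.27. Car13 at 8 weeks (8.79 to 9.11) lies above all mice of 4 weeks (6.90 to 8.47), Car3 is spread over 4.49 log2 units, and the open squares are the extremes of several panels.

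Car3, a slow cytosolic enzyme abundant in fat and skeletal muscle, varied far more among mice of 1 age than between ages. Its values at 4 weeks were 3.97, 3.27, 6.00, 5.30 and 5.32 (log2, mean of 3 probe sets), at 8 weeks 6.40, 3.48, 3.08, 5.32 and 5.59, and at 12 weeks 4.80, 3.62, 7.57, 4.71 and 4.66. At 16 weeks they were 5.63, 5.25, 5.94, 5.76 and 3.78, and at 20 weeks 4.78, 5.95, 4.68, 6.30 and 4.66. High and low mice were found at every age, and the groups overlapped throughout. The range over the 25 arrays was 4.49 log2 units, larger than that of 98.5% of genes. The log2 fold changes were 0.00, 0.30, 0.50 and 0.50 at 8, 12, 16 and 20 weeks, each with an SE of 0.72, so that at 20 weeks the 95% interval ran from -0.99 to 1.99.

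Of the 3 expressed probe sets of Car3, 1449434_at had the widest spread, between 3.29 and 11.91 over the mice. The probe set 1460256_at lay between 1.74 and 7.23, and 1453588_at between 3.18 and 3.87 in all mice but mouse 3 of 20 weeks, which read 5.48. As the mean of these 3 probe sets, Car3 went with the fat markers of the samples. The 3 genes most like Car3 over the 25 arrays were Adipoq, the adipocyte hormone adiponectin (Spearman rho 0.950), Fabp4, the fatty acid binding protein of adipocytes (rho 0.910), and Thrsp, a gene of fat synthesis (rho 0.897). They remained the 3 most alike after the mean of each age was subtracted, and all 3 stand on the list of adipocyte markers.

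The mean of that list (6 of 11 genes expressed) correlated with Car3 at r = 0.937 (rho 0.941, n = 25 arrays), and at r = 0.904 without the 2 arrays farthest from the list's median. The list was highest in mouse 3 of 12 weeks (8.85), which also had the highest Car3 (7.57), and lowest in mouse 3 of 8 weeks (5.17), which had the lowest (3.08). No gene of the list passed at any age against 4 weeks (9 measured, limma). Car3 also went with the parotid serous list (r = 0.677, rho 0.762), and at r = 0.583 without the 2 farthest arrays. With the skeletal muscle list r was 0.059, and Ckm, the creatine kinase of muscle, averaged between 2.26 and 2.35 at each age, below the expression limit. These correlations describe 25 arrays that share their normalization and gland makeup, and the part of fat tissue in the Car3 values was not tested.

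**Figure D3:**
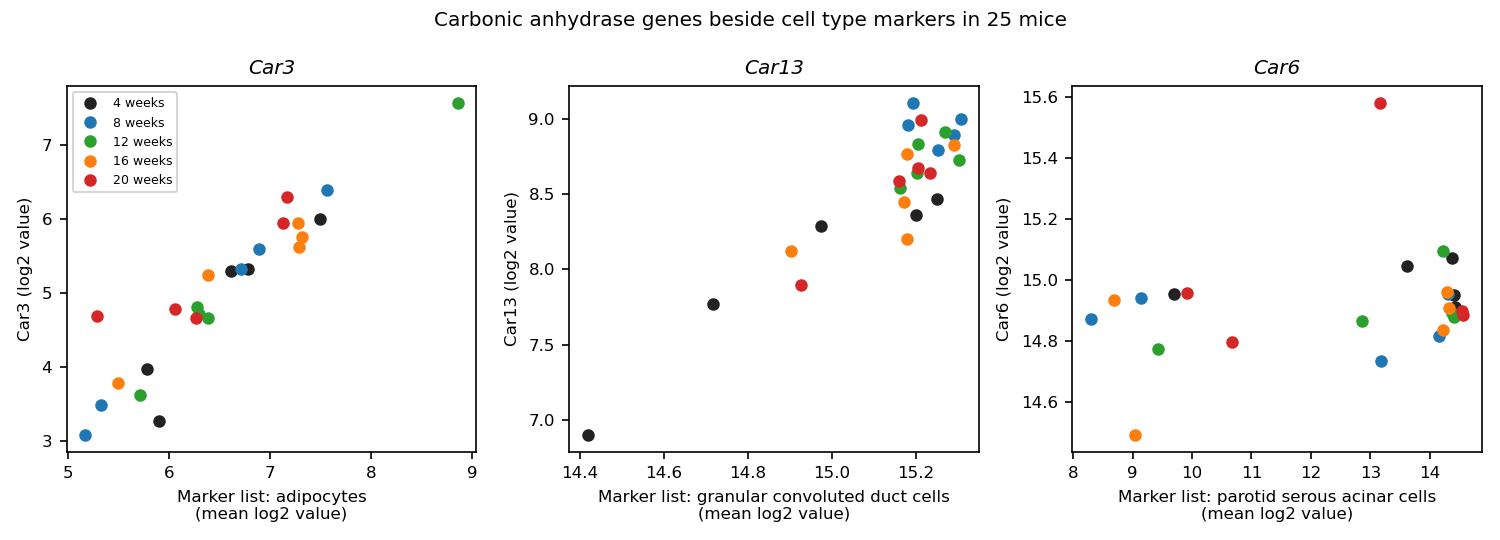
Log2 value of Car3, Car13 and Car6 (y axes) against the mean log2 value of a cell type marker list (x axes: adipocytes, granular convoluted duct cells, parotid serous acinar cells), 1 point per mouse, coloured by age. Car3 follows the adipocyte list (r = 0.937) and Car13 the granular duct list (r = 0.909), while Car6 stays between 14.49 and 15.58 as the parotid list runs from 8.30 to 14.57.

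Car13 went with duct markers, though not with them alone. Its correlation with the granular convoluted duct list (10 of 18 genes expressed) was r = 0.909 (rho 0.725), and 0.742 without the 2 farthest arrays. With the list of other duct cells and ionocytes (10 of 11 expressed) it was r = 0.807 (rho 0.758), and 0.789 without the 2 farthest arrays. Lists that are not of duct markers came as close. For the hypoxia response genes r was 0.842 (rho 0.768), and for genes that export protons or lactate 0.820 (rho 0.746). In the granular duct list 2 genes passed as higher (Klk1b5 and Klk1b16, by 0.45 and 0.36 on the log2 scale) and 1 as lower (Klk1) at 12 weeks, and none at 8 weeks. In the other duct list 1 gene passed as higher at 8 weeks (Cftr) and 3 at 12 weeks (Cftr, Scnn1b and Tfcp2l1). Of all genes 2.26% passed at 8 weeks in either direction, and 5.66% passed as higher at 12 weeks. At 8, 12, 16 and 20 weeks the median log2 fold change of the other duct list was 0.82, 0.89, 0.38 and -0.11. That of the granular duct list was 0.36, 0.37, 0.31 and 0.31. The part of the duct share in the Car13 values was not tested. The genes most like Car13 were Zfyve16, an endosomal protein (rho 0.918), Grb14, an adaptor of the insulin receptor (rho 0.895), and Cd14, a receptor for bacterial lipopolysaccharide (rho 0.893). After age means were subtracted none of the 3 stayed among the 3 most alike. For Car2 they were Oit1 (rho 0.907), Prkar2b, a regulatory subunit of protein kinase A (rho 0.905), and Rhob, a small GTPase (rho 0.867), and again none stayed. The correlation of Car2 with Car13 themselves was near 0 (rho -0.075), and 0.544 after age means were subtracted.

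Car8, a relative without enzyme activity that binds the inositol trisphosphate receptor, did not pass at any age. Its mean level was 6.78 ± 0.14 at 4 weeks, 6.92 ± 0.27 at 8 weeks, 7.10 ± 0.21 at 12 weeks, 6.65 ± 0.33 at 16 weeks and 6.43 ± 1.01 at 20 weeks (SD, n = 5 each, mean of 2 probe sets). The large SD at 20 weeks came from mouse 3, at 4.64, while the other 4 mice lay between 6.76 and 7.02. With that mouse the log2 fold change at 20 weeks was -0.35, which did not pass, and without it 0.10. Tested singly, the probe set 1424958_at was higher at 12 weeks (0.34, SE 0.09, adjusted p = 0.0241), with 4.92, 5.26, 4.77, 5.37 and 4.77 at 12 weeks and 4.62, 4.70, 4.69, 4.69 and 4.69 at 4 weeks. Over all other ages this probe set read 4.44 to 4.81, a range that holds mice 3 and 5 of 12 weeks. At 12 weeks 4.95% of all probe sets passed. All mice of 12 weeks lay above those of 4 weeks in this probe set, which was so for 9.48% of all probe sets, and the other expressed one, 1427482_a_at, did not pass there. The genes most like Car8 were Eps8l2, an actin regulator (rho 0.874), Ppp2cb, a catalytic subunit of protein phosphatase 2A (rho 0.855), and Atp5b, the beta subunit of the mitochondrial ATP synthase (rho 0.837).

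Car6, the enzyme that serous acinar cells secrete into saliva, had the smallest range over the 25 arrays (1.09 log2 units) of the 7 expressed genes, although 49.6% of all genes had a smaller one. It was measured by 1 probe set (1421001_a_at), near the upper end of the values on these arrays (highest value 16.94). The mice of 4 weeks read 15.04, 14.95, 15.07, 14.91 and 14.95 (log2), those of 8 weeks 14.96, 14.94, 14.87, 14.82 and 14.73, and those of 12 weeks 15.10, 14.86, 14.88, 14.77 and 14.89. At 16 weeks the values were 14.84, 14.49, 14.91, 14.96 and 14.93, and at 20 weeks 14.80, 14.90, 15.58, 14.88 and 14.96. Apart from mouse 2 of 16 weeks and mouse 3 of 20 weeks, all mice lay within 14.73 and 15.10, and the groups overlapped at every age.

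The log2 fold changes of Car6 were -0.12, -0.08, -0.16 and 0.04 at 8, 12, 16 and 20 weeks (SE 0.11 each), and the 95% intervals of the 4 ages lay within -0.39 and 0.27. At 20 weeks the sign turned without mouse 3 (-0.10). With the parotid serous list the rho of Car6 was 0.206, and the mice with that list at its lowest (8.30) and highest (14.57) read 14.87 and 14.88 for Car6. Whether a probe set this near the upper end of the scale still follows the transcript level was not tested. The 3 genes most like it were Scgb1b27 (rho 0.914) and Scgb2b27 (rho 0.856), the paired subunits of a secretoglobin found in mouse saliva, and Htr7, a serotonin receptor (rho 0.812).

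**Figure D4:**
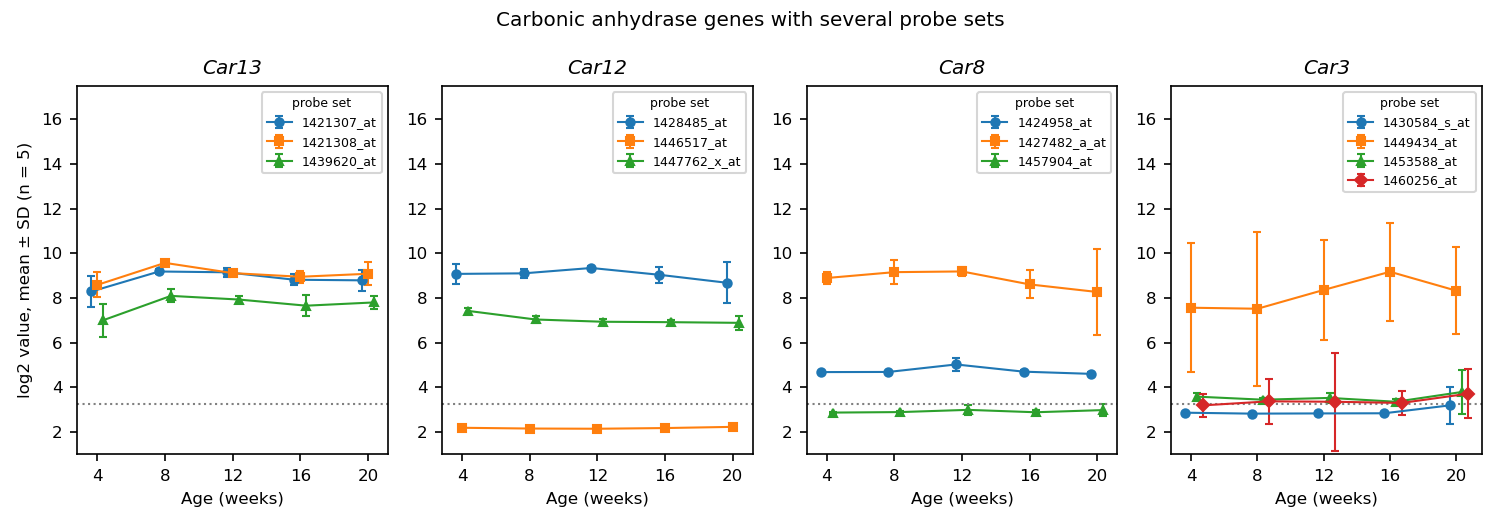
Log2 value (y axis, mean and SD of 5 mice) by age in weeks (x axis) for each probe set of Car13, Car12, Car8 and Car3, with a dotted line at the expression limit of 3.27. In Car12 the probe set 1447762_x_at is lower at every later age (means 7.03, 6.93, 6.91 and 6.88) than at 4 weeks (7.42), 1428485_at is highest at 12 weeks (9.34), and in Car3 1449434_at has the widest spread.

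Among the enzymes that face the outside of the cell, Car12, found in many secretory epithelia, came closest to passing at 20 weeks. Its values were 7.86, 7.87, 7.24, 8.14 and 7.79 at 20 weeks and 8.20, 8.38, 8.37, 7.86 and 8.43 at 4 weeks (log2, mean of 2 probe sets), so that 3 of the 5 mice of 20 weeks lay below the lowest of 4 weeks, 1 of them by less than the printed digits, and the groups overlapped. The log2 fold change was -0.47 (SE 0.13, adjusted p = 0.0564). From the youngest to the oldest age the means were 8.25, 8.07, 8.14, 7.98 and 7.78, and no neighbours in the order of levels were further apart than the larger of their SDs. At 8, 12 and 16 weeks the log2 fold change was -0.18, -0.11 and -0.27. Without the 3 arrays of lowest upper quartile Car12 passed at 16 weeks (-0.32, adjusted p = 0.0254) and 20 weeks (-0.43, adjusted p = 0.00478). Without mouse 4 of 4 weeks alone it passed at 20 weeks (-0.56, adjusted p = 0.0166).

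The 2 expressed probe sets of Car12 did not run together. Tested singly, 1447762_x_at was lower at 12 weeks (-0.49, adjusted p = 0.0150), 16 weeks (-0.51, adjusted p = 0.0170) and 20 weeks (-0.54, adjusted p = 0.0153), ages at which 4.95%, 2.49% and 1.65% of all probe sets passed. It read 6.62, 6.55, 7.37, 6.88 and 6.99 at 20 weeks and 7.28, 7.52, 7.58, 7.37 and 7.34 at 4 weeks, and only mouse 3 of 20 weeks reached the values of 4 weeks. For 1428485_at the log2 fold changes were 0.02, 0.27, -0.04 and -0.40 at 8, 12, 16 and 20 weeks (SE 0.30), with 7.12 in mouse 3 of 20 weeks and 8.60 to 9.40 in the other mice of that age. Which transcript each probe set reads is not given in the sources used here, and a probe set ending in x_at may bind other transcripts. The genes most like Car12 were Pradc1 (rho 0.838), Cdk2ap1, a partner of the kinase Cdk2 (rho 0.824), and Fkbp9, a folding enzyme of the endoplasmic reticulum (rho 0.822).

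Car9, a membrane enzyme known as a target of the hypoxia response, lay near the expression limit. It read 3.17, 3.18, 3.83, 3.64 and 3.88 at 4 weeks, 3.16, 3.17, 3.16, 3.14 and 3.10 at 8 weeks, and 3.16, 3.12, 2.98, 3.42 and 3.12 at 12 weeks (log2, probe set 1427013_at). At 16 weeks the values were 3.12, 3.24, 3.20, 3.16 and 3.15, and at 20 weeks 2.29, 3.13, 5.13, 3.12 and 3.22. Only 3 mice of 4 weeks, 1 of 12 weeks and mouse 3 of 20 weeks lay above the limit of 3.27. The mean over the arrays was 3.28, and 3.20 without mouse 3 of 20 weeks, so that Car9 counted as expressed through that array. All mice of 8 weeks lay below all mice of 4 weeks, although the nearest mice both read 3.17, and 4.05% of all genes were separated in this direction.

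The log2 fold changes of Car9 were -0.40, -0.38, -0.37 and -0.16 at 8, 12, 16 and 20 weeks, and none passed. Without mouse 3 of 20 weeks the last was -0.60 (adjusted p = 0.0233), and without the 3 arrays of lowest upper quartile -0.58 (adjusted p = 0.0493), with all other mice of 20 weeks below the limit. In these fits 1617 and 1676 of all genes passed at 20 weeks, against 483 with all arrays. The genes most like Car9 were Igll1 (rho 0.874), a surrogate light chain gene of early B cells, Zkscan16, a zinc finger gene (rho 0.836), and Tpbgl (rho 0.834). Car9 lay above the limit in only 5 of the 25 arrays, so these rhos mostly rank values near background and say little about Car9 transcript.

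Car4 and Car14, whose probe sets were not expressed by the definition used, lay between 2.66 and 3.32 and between 2.01 and 2.23 over the 25 arrays. As the mean of 2 probe sets, Car4 lay above the limit only in mouse 3 of 20 weeks. Singly, the probe set 1448949_at also lay above it at younger ages. It read 3.49 to 3.53 in mice 2, 3 and 4 of 4 weeks and 3.32 in mouse 3 of 12 weeks. The log2 fold changes were between -0.16 and -0.06 for Car4 and between -0.03 and 0.01 for Car14. For 1448949_at they were between -0.24 and -0.19, and for 1418094_s_at, the other probe set of Car4, between -0.09 and 0.07. Tested singly, neither passed at any age against 4 weeks. At levels near or below the limit a change of transcript may go unseen, which was not tested. Without mouse 3 of 20 weeks Car4 passed at 12 weeks (-0.16, adjusted p = 0.0405), where 3017 of all genes did, against 1276 with all arrays. With array weights it passed at 12 weeks (-0.165, adjusted p = 0.00970) and 20 weeks (-0.175, adjusted p = 0.0196), where 9980 and 6533 of all genes did. Car14 passed at 12 weeks with array weights too (-0.030, adjusted p = 0.0238). All mice of 12 weeks lay below all mice of 4 weeks in Car14, which was so for 21.1% of all genes, and the sign of its change there turned with quantile normalization (0.006 in place of -0.03).

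The start regions of Car6, Car9 and Car12 are shown because Car6 is the secreted enzyme of the gland and Car9 and Car12 are targets of the hypoxia response, whose factors bind the letters ACGTG or GCGTG. Of the 9 genes, 5 were matched by symbol in the RefSeq promoter table (build GRCm38.p6): Car4, Car6, Car9, Car12 and Car14. Each sequence runs from 250 bases before the start to 50 bases after it, 5′ to 3′ on the strand of the gene. Capitals mark ACGTG or its reverse complement CACGT, and GCGTG or its reverse complement CACGC. The letters CACGTG hold both ACGTG and CACGT in the same 6 bases. The Car6 region is chr4:150201086-150201385 on the minus strand, the Car9 region chr4:43506776-43507075 on the plus strand and the Car12 region chr9:66713436-66713735 on the plus strand.
Car6: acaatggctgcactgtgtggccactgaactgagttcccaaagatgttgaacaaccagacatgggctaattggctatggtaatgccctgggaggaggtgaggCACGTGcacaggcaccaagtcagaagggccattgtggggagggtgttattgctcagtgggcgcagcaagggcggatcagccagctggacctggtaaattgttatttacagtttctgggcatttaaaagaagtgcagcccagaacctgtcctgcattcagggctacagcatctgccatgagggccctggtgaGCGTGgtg
Car9: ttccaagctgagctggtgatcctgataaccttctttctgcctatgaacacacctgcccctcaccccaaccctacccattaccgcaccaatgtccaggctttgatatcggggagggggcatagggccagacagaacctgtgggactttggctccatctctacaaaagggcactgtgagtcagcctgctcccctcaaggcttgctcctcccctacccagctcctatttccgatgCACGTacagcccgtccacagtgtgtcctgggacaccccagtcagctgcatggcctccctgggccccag
Car12: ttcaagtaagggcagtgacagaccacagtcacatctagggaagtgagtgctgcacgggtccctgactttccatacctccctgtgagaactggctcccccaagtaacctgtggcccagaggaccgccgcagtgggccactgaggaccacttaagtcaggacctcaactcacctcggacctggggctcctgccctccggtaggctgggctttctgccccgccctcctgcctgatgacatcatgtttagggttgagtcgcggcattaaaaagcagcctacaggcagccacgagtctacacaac
Car6 held CACGTG starting 149 bases before the start site and GCGTG 42 bases after it, and Car9 held CACGT starting 18 bases before it. ACGTG or CACGT was also in the Car4 and Car14 regions, and neither motif was in that of Car12. The Car12 and Car14 windows lie inside the genes as listed, away from their outermost start. Other start regions of these genes were not searched. Of 32851 promoters of the same length, 19.6% held ACGTG or CACGT and 32.4% held GCGTG or CACGC. The letters TATAAA, the core of the TATA box, were searched on the coding strand. Of the 5 regions only that of Car4 held them, starting 42 bases after the start site and not before it. They were in 8.3% of all promoters. A match describes letters in this window and is not a site, and no match says only that the letters are absent from it.

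Among the genes that work beside carbonic anhydrases, single members passed the test. Of 24 genes of the hypoxia response 22 were measured, and 4 passed as higher at 12 weeks, where 5.66% of all genes did: Slc2a1, the glucose carrier (1.58, adjusted p = 0.00377), Ndrg1 (1.13, adjusted p = 0.00956), Aldoa, a glycolytic enzyme (0.88, adjusted p = 0.0243), and Bnip3, a mitophagy receptor (0.98, adjusted p = 0.0328). At 16 weeks Slc2a1 passed again (1.11, adjusted p = 0.0481). None passed as lower at any age, and the list's median log2 fold change was 0.33, 0.49, 0.29 and 0.14 at 8, 12, 16 and 20 weeks. Car9 had its mean at 3.16 at 12 weeks and 3.54 at 4 weeks.

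Of 23 carriers and channels of bicarbonate and chloride 21 were measured. Cftr, the chloride and bicarbonate channel of ducts, was higher at 8 weeks (0.99, adjusted p = 0.0449), 12 weeks (0.89, adjusted p = 0.0388) and 20 weeks (1.28, adjusted p = 0.00714). Slc26a6, an exchanger of chloride for bicarbonate, was lower at 16 weeks (-1.75, adjusted p = 0.00142) and 20 weeks (-1.26, adjusted p = 0.0218). The other 19 did not pass at any age, and the median over the list lay between -0.05 and 0.01.

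Of 17 genes that export protons or lactate 16 were measured. Atp4a, which encodes the proton pump of the stomach, was higher at all 4 later ages, with log2 fold changes of 4.45, 5.01, 4.74 and 4.40 at 8, 12, 16 and 20 weeks (SE 0.97, adjusted p between 0.00354 and 0.0162). Slc9a2, a sodium and proton exchanger of epithelia, was higher at 8 weeks (1.09), 12 weeks (1.62) and 16 weeks (1.27), and Slc16a3, a lactate exporter, at 12 weeks (1.46, adjusted p = 0.00239). The other 13 did not pass at any age, and the list's median was 0.27, 0.36, 0.17 and 0.09. The correlation of Car13 with the mean of this list was r = 0.820 (rho 0.746) over the 25 arrays.

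The remaining 7 genes of the family (Car1, Car5a, Car5b, Car7, Car10, Car11 and Car15) were all measured. Only Car7, a cytosolic enzyme known from neurons, had an expressed probe set. Its mean level was 5.73 ± 1.30 at 4 weeks, 4.91 ± 0.26 at 8 weeks, 4.70 ± 0.36 at 12 weeks, 5.05 ± 0.25 at 16 weeks and 4.66 ± 1.33 at 20 weeks (SD, n = 5 each). None of the 7 passed at any age against 4 weeks in limma, and the median over them lay between -0.04 and 0.02. Car1, the enzyme of red blood cells and a neighbour of Car2, averaged between 2.44 and 2.57 at each age, below the expression limit.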

How the data were processed

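Salivary gland RNA of 25 male mice had been measured on 1 array per mouse, 5 mice at each of 5 ages. The values deposited by the authors are on the log2 scale, for 45101 probe sets. GCRMA is named in the methods and RMA in the submitters' processing notes. The values lie between 0.13 and 16.94, with array medians between 3.17 and 3.64, and no normalization was added. The platform annotation gave 34958 probe sets 1 symbol each, and these were used. A further 932 carried several symbols and 9211 were not listed. A probe set with a mean over all arrays above 3.27 counted as expressed, and expressed probe sets were averaged per gene, or all probe sets where a gene had none (18194 genes, 11696 with an expressed probe set). Array number and signal over background, in place of depth, limit the precision.

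One linear model per gene was fitted to all 25 arrays with limma 3.58.1 (R 4.3.3), without covariates. Each later age was set against 4 weeks, consecutive ages against each other, and the 5 ages were tested by polynomials of degree 1 to 4 (moderated F-test, B-statistic above 1.5 as in the methods). P-values of the comparisons between ages are two-sided. Adjusted p-values are by the Benjamini-Hochberg method across the 18194 genes. Probe sets tested singly were adjusted across 34958 probe sets, and the fit of expressed genes only across 11696 genes. The mice are separate animals, so p-values measure the spread between mice. Litter is not given in the labels and was not modelled. The fit was tested on simulated data. Named genes are the 9 family genes, up to 4 genes with the smallest adjusted p from each list of partner genes, and the 3 expressed genes with the highest Spearman rho to each expressed family gene, besides cell type markers. The family genes and all lists were chosen with earlier results of these data known. Shared mouse numbers did not pair the mice across ages. Alternatives covered the averaging of probe sets, normalization, prior, array weights, covariates, a replicate block and leaving out arrays.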

Additional observations from a re-analysis of the deposited data

Results flagged for a closer look

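In 9 of the 45 groups of 5 mice examined (9 genes at 5 ages), 1 mouse lay far from the other 4 by the criterion of Dixon's test, which chance alone meets in about 1 in 20 groups. The 9 genes were read on the same arrays, so groups are not independent and the count cannot be weighed against that rate. All 9 flags fell on the 3 arrays of lowest upper quartile, and 4 of them on mouse 3 of 20 weeks. That array read 4.64 for Car8, against 6.76 to 7.02 in the other mice of its age, 15.58 for Car6, 3.32 for Car4 and 2.23 for Car14. Mouse 2 of 16 weeks read 6.88 for Car2, against 8.24 to 8.66 in the other mice of its age, 14.49 for Car6, 2.89 for Car4 and 2.11 for Car14. Mouse 4 of 4 weeks read 8.47 for Car2, against 9.25 to 9.47 in the other mice of its age. The part of the low overall signal of these arrays in the values was not tested.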

How the results depend on the processing

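The limits of these results are 5 mice per age, a spread set by few arrays, and, for Car4, Car9 and Car14, signal at or below the expression limit. Of the 9 genes, 1, 1, 1 and 0 passed at 8, 12, 16 and 20 weeks, and none by the F-test, the B-statistic or between consecutive ages. Leaving out each array in turn gave 0 to 2 genes at 8, 12 and 20 weeks, 0 to 1 at 16 weeks and 0 to 2 by the F-test. Over all genes these fits called 164 to 1241 at 8 weeks and 613 to 3017 at 12 weeks. At 16 weeks they called 371 to 1335 and at 20 weeks 289 to 1617. The replicate block on mouse number gave 1, 1, 1 and 0, as without it: the 50 pairs of mice sharing a number correlated at -0.582 to 0.571, 15 of them above 0.1, so the numbers do not pair mice. It changed no call of a single gene. Quantile normalization gave 3, 2, 2 and 3 genes at the 4 ages, where 603, 1165, 1129 and 1138 of all 18194 genes passed. It gave 3 by the F-test and 1 by the B-statistic. Shares of all genes by the F-test and B-statistic were counted only with all arrays in the main fit and without the 3 arrays. In the other settings such counts therefore say nothing particular to the family. Array weights gave 3, 7, 2 and 5 genes, where 2354, 9980, 3615 and 6533 of all genes passed. They gave 4 by the F-test and 1 by the B-statistic. A covariate for each array's upper quartile gave 2 at 20 weeks and 2 by the F-test, and at 8 and 12 weeks called Car2 in place of Car13. With this covariate 373, 1031, 1531 and 1473 of all genes passed at the 4 ages. Only genes with an expressed probe set gave 1 at 20 weeks, where 553 of 11696 genes passed, and 1 by the F-test. All probe sets averaged gave 1 at 20 weeks, where 516 of all genes passed. The brightest probe set, and a trend with a robust prior, each gave 0 at 12 weeks. Fits of only the 2 ages compared gave 0 at 8, 12 and 16 weeks. Chosen after seeing the data, leaving out the 3 arrays of lowest upper quartile gave 2, 2, 2 and 4 genes, 3 by the F-test and 1 by the B-statistic (6.15%, 16.2%, 11.1%, 9.21%, 13.9% and 3.64% of all genes), and probe sets tested singly gave 3 genes at 12 weeks, 2 at 16 weeks and 1 at 20 weeks.

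In these 3 calls the sign never turned. Car2 at 16 weeks passed in 32 of 36 settings, and with only 2 ages its adjusted p was 0.169. Car13 at 8 weeks lost its call with the upper quartile covariate (0.68, adjusted p = 0.0510) and at 12 weeks with quantile normalization (0.38, adjusted p = 0.157). Car12 at 20 weeks passed in 8 of 36 settings. The sign turned only where no call had been made, and no cause of it was tested. Leaving out 1 array moved Car3 at 8 weeks between -0.41 and 0.42 and at 12 weeks between -0.32 and 0.67, and at 20 weeks Car6 between -0.10 and 0.095, Car8 between -0.50 and 0.095, Car9 between -0.60 and 0.11 and Car14 between -0.025 and 0.026. Quantile normalization gave Car6 at 20 weeks -0.11, Car8 at 8 and 12 weeks -0.15 and -0.040, and Car14 at 8, 12 and 16 weeks 0.0058, 0.0062 and 0.0018. Array weights gave Car3 at 8 weeks 0.22, and at 20 weeks Car6 -0.12, Car8 0.033 and Car14 -0.028. The upper quartile covariate gave Car3 at 8 weeks 0.081, Car8 at 8 and 12 weeks -0.28 and -0.10, Car9 at 12 weeks 0.0059 and Car14 at 8 and 12 weeks 0.0088 and 0.0061. Without the 3 arrays Car3 at 8 weeks was 0.13, and at 20 weeks Car6 -0.12, Car8 0.059 and Car14 -0.025. With the brightest probe set Car12 was 0.025 at 8 weeks and 0.27 at 12 weeks.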

Other observations

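Of the 21 genes named as most like a family gene, 6 stayed among the 3 most alike after age means were subtracted, and 19 stayed without mouse 3 of 20 weeks. These values describe 25 arrays that share a normalization.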
